A study of Homo sapiens with 4 samples.

Results

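The genes described are the protein-coding genes of chromosome 19 whose symbol is ZNF followed only by a number, 240 of the 58735 genes counted in MHCC-97H cells. MHCC-97H is an established, highly metastatic hepatocellular carcinoma (HCC) line. Per the labels, RNA-seq was performed on wild-type cells of this line after 24 h with PBS or with 2 μg of migrasomes (Migs), vesicles that migrating cells leave behind on their retraction fibers. Normo-Migs came from MHCC-97H cells kept in normoxia, hypo-Migs from the same line in hypoxia, and CD147KO-Migs from CD147-knockout MHCC-97H cells in hypoxia. The knockout therefore concerned the cells that released the Migs and not the cells that were sequenced. Each condition had 1 library, so no difference below has a replicate check, and the treatment cannot be told apart from the cells, the culture and the library. The question addressed was how the ZNF genes of this chromosome differed between cells given PBS and cells given each kind of Migs, and along the chromosome.

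Zinc finger proteins of this type bind DNA through tandem fingers, each folded around a zinc ion. Many of the ZNF genes on chromosome 19 arose by tandem duplication and lie side by side in clusters, and many encode a KRAB domain. This domain recruits the corepressor TRIM28 (KAP1), which in turn brings in the histone methyltransferase SETDB1 and HP1 proteins. The family is best known for silencing transposable elements, and the genes themselves are usually transcribed at low levels. The annotation of transcription factors deposited with the data placed 232 of the 240 genes in the zf-C2H2 family and gave no family for the other 8.

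The PBS library had 33882496 reads on genes, normo-Migs had 34559968, hypo-Migs had 40285223 and CD147KO-Migs had 35043203. A count of 0 allows up to 3 reads, or 0.0869, 0.088, 0.0747 and 0.0857 counts per 1000000 reads (CPM) in the same order after TMM scaling. Reads are not independent molecules, so these floors and all intervals below cover counting error only. The library labelled PBS stood apart from the other 3, so that a ratio to it compares 2 libraries, whose cells may have differed in more than the treatment. A gene passed the filter when some library held 10 or more of its reads, which 19895 genes did, 187 of them among the 240. PBS was at least 2-fold below all 3 Mig libraries in 14.2% of the genes passing and at least 2-fold above them in 7.1%. The same shares were 1.29% below and 0.854% above for normo-Migs, 1.12% and 1.01% for hypo-Migs, and 1.19% and 0.9% for CD147KO-Migs. The Mig libraries are therefore also compared with each other, without PBS.

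The labelled cell type was checked against marker genes. Of the hepatocyte markers, ALB, APOB and TTR had no reads in any library, and neither had AFP and GPC3, markers of many HCC cells. The keratin genes KRT8 and KRT18 were abundant, with 105571 and 36742 reads in PBS and at least 129218 and 59588 in each Mig library. HNF4A, a master regulator of hepatocytes, had 134, 146, 246 and 141 reads in PBS, normo-Migs, hypo-Migs and CD147KO-Migs, the order in which 4 values are given from here on. FGB, the beta chain of fibrinogen, had 0, 561, 827 and 832 reads, SERPINA1, which encodes alpha-1-antitrypsin, had 25, 2, 9 and 10, and AHSG, another plasma protein gene, had 11, 11, 9 and 10. TF and APOA1 had at most 10 reads in any library. The summed level of 6 fibroblast markers was 23.2, 159, 167 and 167 CPM, with COL1A1 the most abundant at 19.7 CPM in PBS and 99.1 to 104 CPM with Migs. Of the 6, PDGFRB had 70, 1747, 2446 and 2166 reads, DCN had 22, 77, 156 and 138, and LUM had 0, 49, 65 and 72, all higher with Migs like COL1A1. COL3A1 had 27, 14, 27 and 20 reads, and COL1A2 had 2 in PBS and 0 in each Mig library. The summed level of 4 endothelial markers was 3.21, 4.43, 5.8 and 5.53 CPM, and that of 5 leukocyte markers was 0.638, 1.44, 1.96 and 2.75 CPM. In the endothelial list, PECAM1 had 16, 118, 146 and 131 reads, CDH5 had 84, 30, 72 and 59, VWF had 7, 0, 0 and 2, and CLDN5 had 4, 3, 15 and 2, so that its members went opposite ways. In the leukocyte list CD14 was the most abundant gene, with 14, 47, 78 and 86 reads, CD68 had 6, 2, 1 and 0, and CD3E had none. Several of these sums differed between PBS and the Mig libraries, and their part in the differences below was not tested. In bulk RNA, fewer cells of a type and less RNA per cell cannot be told apart.

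Most of the ZNF genes had low levels. FPKM, which divides reads by gene length and library size, allows levels to be compared between genes. The median FPKM over the 240 genes was 0.644, 0.479, 0.495 and 0.508. At least 1 FPKM was reached by 90, 76, 76 and 73 of them. For comparison, 154, 153, 159 and 152 of the 235 ZNF genes on other chromosomes reached 1 FPKM, with medians of 2.07, 1.79, 1.78 and 1.9 FPKM. The summed level of the 240 genes was 1556 CPM in PBS and 1387.1, 1395.4 and 1367.9 CPM with the Migs, so that PBS was 1.12 times the mean of the Mig libraries. ZNF genes on other chromosomes summed to 5188.7, 4573.6, 4555.5 and 4501.7 CPM, likewise highest in PBS. The 8 most abundant genes held 23.8% of the summed FPKM in PBS and 27.6% to 29.1% with Migs.

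ZNF146 encodes a small protein made of fingers alone, without a KRAB domain, and was the most abundant of the 240 genes at 25.3, 21.7, 21.2 and 19.8 FPKM. It was higher in PBS than in each Mig library, by less than 2-fold. ZNF787 followed at 12.2, 12.5, 10.2 and 11.8 FPKM. ZNF317 had 5.29 FPKM in PBS and 9.2, 8.29 and 9.3 with Migs, a log2 ratio to PBS of 0.81 with normo-Migs (95% counting interval 0.69 to 0.93). ZNF865, ZNF579 and ZNF581, which lie close together on the long arm, had mean levels of 7.89, 7.86 and 7.7 FPKM. ZNF428 and ZNF580 had mean levels of 6.99 and 6.19 FPKM. Among the 240 genes, a mean of 1 FPKM or more was found in 84 and a mean of 5 or more in 11. The heat map of levels in chromosomal order shows where the genes without reads lay.

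**Figure D1:**
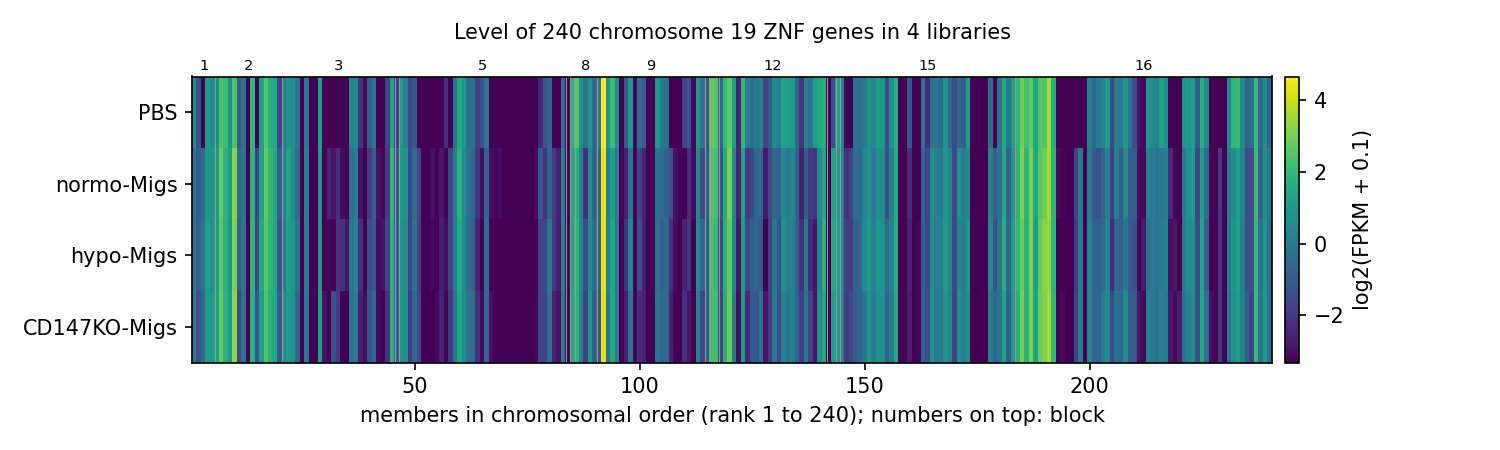
Levels of the 240 genes as log2(FPKM + 0.1) (colour) in the 4 libraries (rows), in order along chromosome 19 (columns); grey lines separate blocks of genes, and blocks of at least 5 genes are numbered. Dark columns are genes at or near 0; the brightest is ZNF146, with a mean of 22 FPKM, and 13 genes have 0 reads in PBS and at least 10 in each Mig library, though several of them stay near the dark end in every row.

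At the other extreme, 28 of the 240 genes had no reads in any library, and 25 more had fewer than 10 in each. The longest stretch without reads held 7 consecutive genes, from ZNF676 to ZNF728 (chr19:22179091-23003176), and a stretch of 4 ran from ZNF415 to ZNF677 (chr19:53107879-53254898). ZNF536, which is expressed mainly in the nervous system, and ZNF541, a gene of germ cells, were also among the genes without reads. ZNF177, likewise at 0, shares 90.8% of its exonic bases with other annotated genes, so its reads may not have been assigned to it. More genes were at 0 in PBS, 67 of the 240, than with normo-Migs (39), hypo-Migs (46) or CD147KO-Migs (40). In percent these were 27.9, 16.2, 19.2 and 16.7, against 26.1, 23.2, 22.6 and 23.2 of all protein-coding genes and between 23.5 and 25.6 of the rest of chromosome 19, where PBS was also highest. In ZNF genes of other chromosomes the percentages were 12.3, 6.81, 6.81 and 7.66, so that an excess of genes at 0 in PBS was found there too.

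The log2 ratio of CPM after TMM scaling was computed with a prior count of 2, and a difference of at least 2-fold was counted. Between normo-Migs and PBS, 26 of the 187 genes were at least 2-fold higher with normo-Migs and 34 lower, whereas among all genes 18.1% were higher and 12.0% lower. Between hypo-Migs and PBS, 28 were higher and 29 lower, against 18.9% and 11.6% of all genes. Between CD147KO-Migs and PBS, 25 were higher and 28 lower, against 18.3% and 12.0%. In percent, the ZNF genes were thus 13.9, 15.0 and 13.4 higher and 18.2, 15.5 and 15.0 lower with the Migs, so that somewhat more genes were lower than higher at this limit, by 1 gene with hypo-Migs. That order turned with other choices. With 1 read in any library as the filter, 212 of the 240 genes passed, and 38 were higher and 36 lower with normo-Migs (17.9% and 17.0%, against 19.1% and 15.3% of all genes). The counts were 34 and 32 with hypo-Migs (16.0% and 15.1%, against 16.6% and 14.4%) and 35 and 30 with CD147KO-Migs (16.5% and 14.2%, against 19.2% and 15.1%). At a 4-fold limit 18 of the 187 were higher and 8 lower with normo-Migs (9.63% and 4.28%, against 9.62% and 4.13%), 17 and 6 with hypo-Migs (9.09% and 3.21%, against 10.0% and 3.84%), and 18 and 10 with CD147KO-Migs (9.63% and 5.35%, against 10.0% and 3.79%). Under both choices the shares were mostly near the background. These 3 comparisons share the PBS library and are not independent. Where reads averaged 50 or more over the 4 libraries, as in 149 of the ZNF genes, 7.38% of the ZNF genes were higher and 14.1% lower with normo-Migs, against 13.6% and 6.71% of all genes. With hypo-Migs 8.72% were higher and 9.4% lower, against 14.1% and 6.49%, and with CD147KO-Migs 7.38% and 10.7%, against 14.0% and 6.56%. At this depth the ZNF genes thus had a smaller share higher and a larger share lower than all genes in each pair. So did ZNF genes of other chromosomes, with 7.77% higher and 8.81% lower, 9.33% and 9.33%, and 8.81% and 7.77% in the same order. In the narrower range of 50 to 200 reads, 8 of 73 ZNF genes were higher and 14 lower with normo-Migs (11.0% and 19.2%, against 26.4% and 15.4%). The counts were 10 and 8 with hypo-Migs (13.7% and 11.0%, against 27.3% and 13.7%) and 8 and 9 with CD147KO-Migs (11.0% and 12.3%, against 27.0% and 14.3%). In that range the share lower was above the background with normo-Migs only.

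The shift was also present in genes that did not reach 2-fold. The median log2 ratio to PBS was -0.27, -0.24 and -0.24 in the order normo-Migs, hypo-Migs, CD147KO-Migs, and over all genes passing it was 0.03, 0.04 and 0.03. ZNF genes of other chromosomes had medians of -0.19, -0.17 and -0.18, and the other protein-coding genes of chromosome 19 had 0.05, -0.02 and 0.05. ZNF genes on and off chromosome 19 thus both had medians below 0, while those of the rest of the chromosome were near 0. With 50 to 200 reads over the 4 libraries, the medians were -0.28, -0.34 and -0.45 for the ZNF genes, -0.12, -0.02 and -0.15 for ZNF genes elsewhere, and 0.37, 0.29 and 0.40 for the rest of the chromosome. PBS was above every Mig library, by any amount, in 97 of the 187 genes (51.9%), in 39.3% of all genes and in 56.5% of the ZNF genes elsewhere. PBS was below every Mig library in 58 of the 187 (31.0%), in 42.7% of all genes and in 34.7% of the ZNF genes elsewhere. By the same rule, 41 genes were lowest and 32 highest with normo-Migs (21.9% and 17.1%, against 17.4% and 19.7%), 33 and 30 with hypo-Migs (17.6% and 16.0%, against 18.5% and 20.5%), and 52 and 28 with CD147KO-Migs (27.8% and 15.0%, against 19.6% and 20.5%). In ZNF genes elsewhere these shares were 16.2% and 14.4%, 19.4% and 15.7%, and 29.2% and 13.4%. The lean with CD147KO-Migs was thus not particular to chromosome 19. The GC content of the longest transcript was lower in the ZNF genes, at a median of 42.5% against 48.6% over all genes and 60.2% over the rest of chromosome 19. With 1 read as the filter the median was -0.21, -0.08 and -0.13. With the trend in GC content and gene length removed, a choice made after seeing the data, the medians were -0.30, -0.27 and -0.29.

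**Figure D2:**
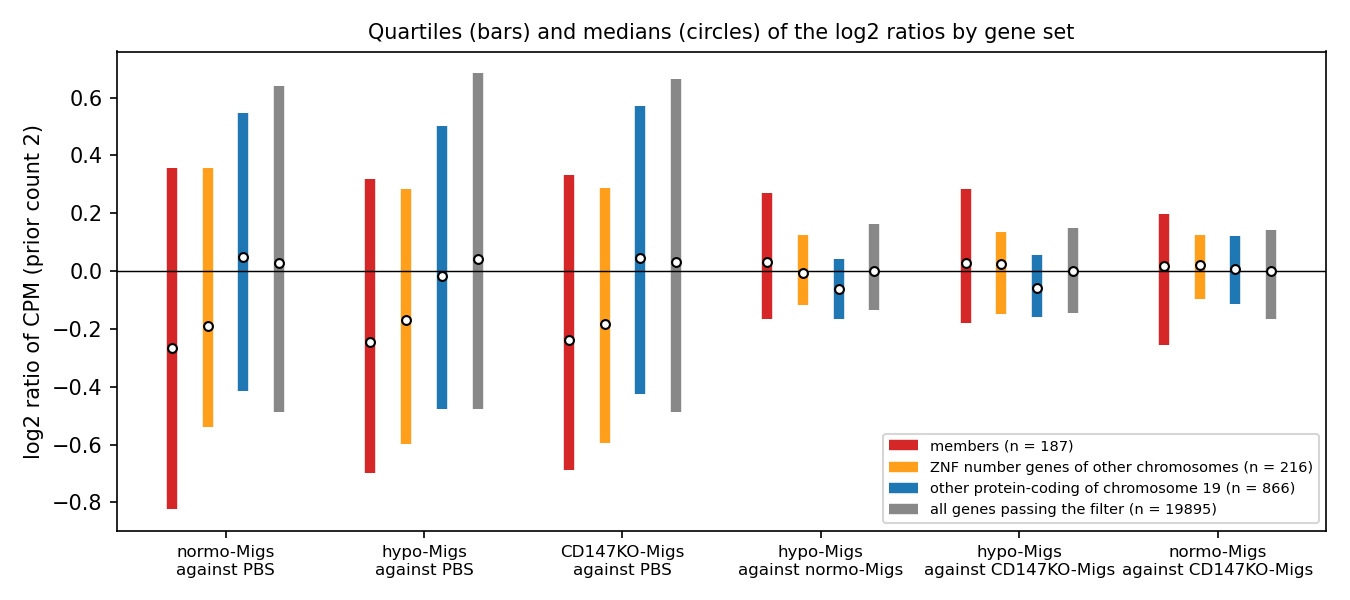
Log2 ratio of CPM (vertical axis) for each of the 6 pairs of libraries (horizontal axis); bars span the lower to the upper quartile over genes and circles mark the median, for the 187 ZNF genes of chromosome 19 and 3 sets of other genes. In the 3 pairs with PBS the medians of both ZNF sets lie between -0.27 and -0.17; in the 3 pairs of Mig libraries all medians lie between -0.06 and 0.03.

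Some genes had no reads in PBS and at least 10 reads in each Mig library. There were 13 of them among the 187 (6.95%), and 2.99% of all genes passing met the same rule. These genes passed the filter through the Mig libraries alone and the shares were not matched for level, so they are a description. The share was 4.17% in ZNF genes of other chromosomes and 2.08% in the rest of chromosome 19. For comparison, 1 of the 187 genes, ZNF540, had 0 reads with normo-Migs and at least 10 in each other library, and 0 genes met this rule with hypo-Migs or CD147KO-Migs. Over all genes passing, 3, 4 and 7 met it in these Mig libraries. The 13 genes were ZNF556, ZNF560, ZNF844, ZNF93, ZNF85, ZNF681, ZNF569, ZNF577, ZNF649, ZNF525, ZNF470, ZNF71 and ZNF606, which lie scattered over 7 parts of the chromosome. ZNF71 had 0, 183, 227 and 205 reads, so that it was at least 61.8-fold, 65.1-fold and 67.3-fold higher in CPM with normo-Migs, hypo-Migs and CD147KO-Migs than the floor of 3 reads in PBS. ZNF556 had 0, 142, 192 and 133 reads and was at least 43.7-fold higher in each Mig library. ZNF525 had 0, 100, 88 and 130 reads. In each of these genes every Mig library lay far above PBS.

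ZNF470 had 0, 69, 65 and 72 reads, at least 18.6-fold more in each Mig library in CPM, and ZNF577 had 0, 30, 56 and 41 reads. ZNF93, named here after its values were seen, encodes a repressor of LINE-1 elements and had 0, 43, 43 and 44 reads. ZNF470 and ZNF71 are next to each other on the plus strand, at chr19:56567511-56588911 and chr19:56595264-56626481. The next gene of the family, ZNF835 (chr19:56661981-56671783, minus strand), had no reads in any library. The bases before the start of these 3 genes are shown because the neighbours differed in whether PBS, or every library, lacked reads. Those of ZNF229, the gene with the largest excess in PBS, are shown beside them. Sequences are from RefSeq on GRCh38.p14, 5′ to 3′ on the strand of the gene and ending before the gene as annotated in the data, with CG pairs, the sites of DNA methylation, in capitals.
ZNF470: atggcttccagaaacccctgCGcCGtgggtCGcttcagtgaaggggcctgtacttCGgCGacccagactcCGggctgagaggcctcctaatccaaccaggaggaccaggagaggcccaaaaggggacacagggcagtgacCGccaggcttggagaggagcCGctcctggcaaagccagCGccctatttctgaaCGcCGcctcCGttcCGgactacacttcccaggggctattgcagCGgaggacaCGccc
ZNF71: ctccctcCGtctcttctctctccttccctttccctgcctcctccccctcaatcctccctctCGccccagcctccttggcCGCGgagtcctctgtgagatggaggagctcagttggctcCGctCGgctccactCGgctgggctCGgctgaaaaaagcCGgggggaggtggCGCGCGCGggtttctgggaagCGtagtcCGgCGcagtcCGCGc
ZNF835: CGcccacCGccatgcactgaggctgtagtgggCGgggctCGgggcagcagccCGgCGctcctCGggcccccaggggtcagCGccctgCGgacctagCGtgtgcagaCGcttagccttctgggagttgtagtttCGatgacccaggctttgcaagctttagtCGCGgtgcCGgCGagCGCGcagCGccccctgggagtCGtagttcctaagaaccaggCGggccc
ZNF229: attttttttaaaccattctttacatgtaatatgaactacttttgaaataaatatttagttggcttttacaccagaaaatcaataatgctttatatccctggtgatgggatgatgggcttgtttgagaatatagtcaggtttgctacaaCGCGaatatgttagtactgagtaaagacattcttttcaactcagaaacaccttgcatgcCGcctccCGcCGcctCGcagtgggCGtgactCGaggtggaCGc
The windows are chr19:56567218-56567467 (plus strand) for ZNF470, chr19:56595052-56595263 (plus) for ZNF71, chr19:56671784-56672007 (minus) for ZNF835 and chr19:44448579-44448828 (minus) for ZNF229. They hold 15, 18, 21 and 9 CG pairs in 250, 212, 224 and 250 bases. Their GC content was 64.0%, 67.5%, 68.8% and 40.0% in the same order. The ratio of observed to expected CG pairs was 0.586, 0.763, 0.795 and 0.9. ZNF229 thus had the fewest CG pairs but the highest ratio, so the windows do not separate by CG pairs relative to base content. ZNF71, without reads only in PBS, and ZNF835, without reads in every library, thus both had CG-rich sequence before the start. The window of ZNF470 overlaps AC005498.3, an antisense gene with no reads in any library.

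Other genes were lower in PBS without being absent. In all, 24 of the 187 genes (12.8%) were at least 2-fold lower in PBS than in every Mig library, against 14.2% of all genes, so the share was not above the background. By the same rule 1 gene was lowest and 2 highest with normo-Migs, 2 and 2 with hypo-Migs, and 1 and 1 with CD147KO-Migs. Of the 24 genes lower in PBS, 13 were those with 0 reads in PBS and at least 10 in each Mig library, and 11 were others. ZNF114 had 29, 238, 349 and 222 reads, a log2 ratio to PBS of 2.97 (95% counting interval 2.50 to 3.66), 3.29 (2.82 to 3.97) and 2.84 (2.35 to 3.53) in the 3 Mig libraries. ZNF333 had 71, 164, 211 and 201 reads and a log2 ratio of 1.20 with normo-Migs (0.82 to 1.65). ZNF701 had 23, 56, 70 and 69 reads. In both, the lowest Mig library was more than 2-fold above PBS in CPM.

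The opposite pattern, PBS at least 2-fold above every Mig library, was found in 19 of the 187 genes (10.2%), against 7.1% of all genes and 4.63% of ZNF genes elsewhere. With a mean of at least 50 reads it was found in 9 of 149 (6.04%), against 4.69% of all genes and 5.18% of ZNF genes elsewhere, and PBS was 2-fold below in 11 of 149 (7.38%), against 12.4% and 7.25%. ZNF229 (chr19:44417519-44448578, minus strand) had 391, 24, 8 and 6 reads. Its log2 ratio to PBS was -3.90 (-4.67 to -3.41), -5.48 (-7.05 to -4.84) and -5.65 (-7.50 to -4.91), which makes it the gene with the largest excess in PBS. ZNF429 had 55, 4, 0 and 3 reads and was at least 21.3-fold lower in CPM with hypo-Migs. ZNF345 had 64, 11, 12 and 13 reads, and ZNF221 had 87, 14, 26 and 9. ZNF461 had 60, 8, 21 and 8 reads, ZNF285 had 155, 39, 26 and 52, and ZNF528 had 94, 33, 25 and 17. ZNF599 had 160, 24, 66 and 41 reads and so differed among the Mig libraries as well. ZNF274, a gene named after its values were seen, encodes a protein that binds within other ZNF genes, over the stretches that encode their fingers, and recruits SETDB1. It had 1059, 384, 552 and 475 reads and a log2 ratio to PBS of -1.44, -1.15 and -1.17. The plot of reads shows the 16 genes that were chosen for the largest separation of PBS from the Mig libraries.

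**Figure D3:**
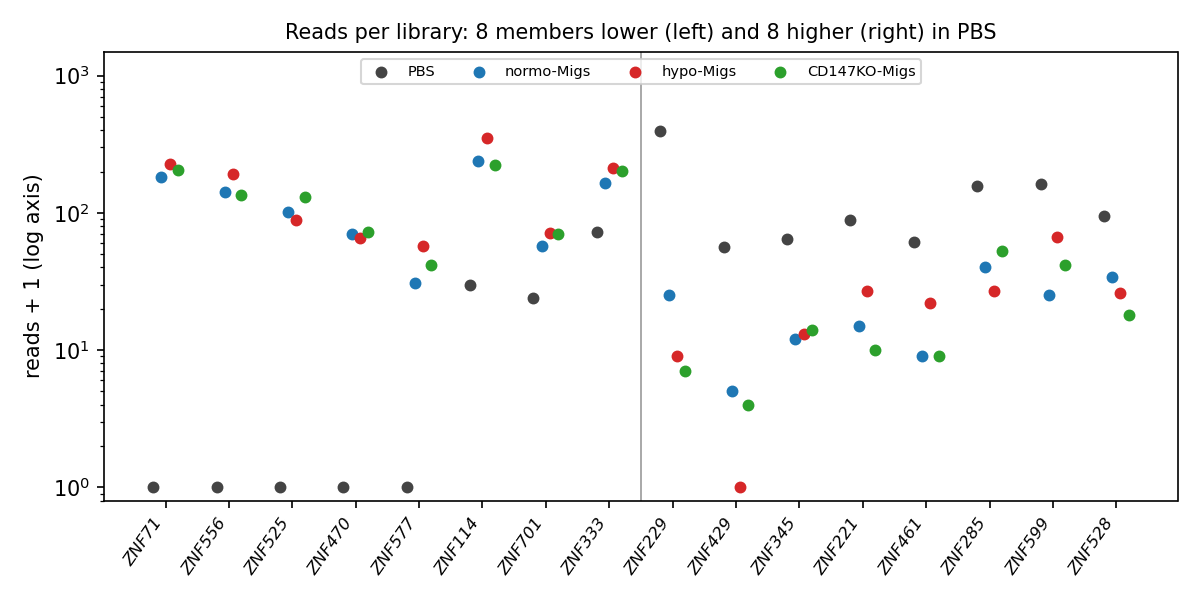
Reads + 1 (vertical log axis) in each library (colours) for the 8 ZNF genes lowest and the 8 highest in PBS by the smallest of their 3 log2 ratios, among genes with at least 50 reads in a library (horizontal axis). On the left, PBS lies at 0 reads in 5 genes; on the right, ZNF229 falls from 391 reads in PBS to 24 or fewer with Migs.

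The direction of the difference varied along the chromosome. The 240 genes were split wherever the starts of neighbours lay more than 1000000 bases apart, which gave 16 blocks numbered from the short-arm end. Over all genes, PBS was above every Mig library in 39.3% and below in 42.7%, and by at least 2-fold in 7.1% and 14.2%, to which the counts by block may be compared. The blocks described for their direction were chosen with these values in view. In block 12, from ZNF575 to ZNF296 (chr19:43525497-45076588), PBS was above every Mig library in 20 of 23 genes passing, by at least 2-fold in 6, and in no gene was it 2-fold below them. The summed level of this block was 171 CPM in PBS and 95.4, 97.1 and 91.7 CPM with the Migs, and the median of the mean Mig log2 ratio to PBS was -0.91. Of 20 other protein-coding genes within the block, PBS was highest in 10 and lowest in 6, with a median of -0.25. Within it, 14 consecutive genes passing, from ZNF283 to ZNF235 (chr19:43827292-44305046), all were highest in PBS. ZNF226 had 520, 209, 257 and 178 reads there, ZNF225 had 240, 110, 98 and 73, and ZNF45 had 597, 363, 376 and 358. ZNF224, which encodes a repressor of the aldolase A gene, had 354, 134, 244 and 218 reads, and 40.5% of its exonic bases are shared with other genes.

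Block 9, from ZNF565 to ZNF573 (chr19:36182060-37817300), had the same direction. PBS was above every Mig library in 16 of 17 genes passing, by at least 2-fold in 5, and the median log2 ratio was -1.03. Its summed level was 207 CPM in PBS and 146, 150 and 138 CPM with the Migs, of which ZNF146 alone gave 105, 90.8, 88.6 and 82.9 CPM. Of 6 other protein-coding genes within this block PBS was highest in 5, with a median of -0.75. Most of the 6 are zinc finger genes too, namely ZFP14, ZFP82, ZNF585A, ZNF585B and ZFP30, of which ZNF585B was lowest in PBS. The longest run of neighbours at least 2-fold lower than PBS held 5 genes passing, ZNF461, ZNF567, ZNF790, ZNF345 and ZNF420 (chr19:36637192-37130314), with both normo-Migs and CD147KO-Migs. With hypo-Migs, the run was limited to ZNF790, ZNF345 and ZNF420. ZNF567 had 308, 126, 234 and 125 reads, and ZNF420, which encodes a repressor of p53 target genes, had 258, 102, 114 and 116. The exception in this block was ZNF569, with 0, 49, 24 and 13 reads. Without PBS, the medians in block 9 were 0.14 for hypo-Migs against normo-Migs, 0.27 for hypo-Migs against CD147KO-Migs and 0.09 for normo-Migs against CD147KO-Migs. In block 12 the same medians were -0.14, 0.13 and 0.11. Over the other blocks with at least 5 genes passing, these medians lay between -0.26 and 0.29.

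Block 8, from ZNF302 to ZNF792 (chr19:34677639-34964049), had a median of -0.47 over 5 genes, with PBS above every Mig library in 3 and below in 0. Block 16 also had this direction, and the remaining large blocks were mixed or leaned the other way. In block 5, from ZNF101 to ZNF254 (chr19:19668796-24129961), 22 of 37 genes passed, of which 13 were lowest and 7 highest in PBS, and the median was 0.19. This block also held 9 of the 28 genes without reads. ZNF91, named after its values were seen and known to repress SVA elements, lies in it and had 128, 44, 98 and 78 reads. In block 15, from ZNF175 to ZNF331 (chr19:51571298-53580269), PBS was 2-fold below the Mig libraries in 8 of 31 genes and 2-fold above them in 1, with a median of 0.11 and summed levels of 191, 196, 216 and 199 CPM. By any amount, PBS was below every Mig library in 15 of the 31 and above in 12. Besides ZNF577, ZNF649 and ZNF525, the 8 included ZNF83 with 195, 404, 460 and 454 reads, ZNF888 with 84, 236, 216 and 236, and ZNF816 with 47, 113, 127 and 107. In block 2, from ZNF557 to ZNF846 (chr19:7069444-9793180), PBS was below every Mig library in 9 of 14 genes and above in 1. Of 36 other protein-coding genes within block 2, PBS was highest in 18 and lowest in 12, with a median of -0.11. Block 3, from ZNF653 to ZNF791 (chr19:11483427-12640098), had a median of -0.08 over 16 genes passing, with PBS above every Mig library in 7 and below in 3. Block 16, the largest with 57 genes from ZNF628 to ZNF446 (chr19:55476332-58481230), had a median of -0.45, with PBS above every Mig library in 26 of 47 genes passing and below in 11. By at least 2-fold it was above in 4 and below in 4. Of 20 other protein-coding genes in the block, PBS was highest in 6 and lowest in 6. Those higher in PBS included ZNF134 with 419, 159, 197 and 198 reads and ZNF776 with 340, 166, 192 and 136. When split at gaps of 500000 bases, its first 16 genes had a median of 0.14 over 11 passing and the other 41 a median of -0.51 over 36.

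Across 186 pairs of adjacent genes passing, Pearson's r of the mean Mig log2 ratio to PBS was 0.271, and 0.345 across 148 pairs when a mean of at least 50 reads was required. Adjacent genes share libraries, base composition and in part sequence, and these values are descriptions across genes. The same r over adjacent other protein-coding genes of chromosome 19 was 0.112 across 865 pairs. Adjacent genes differed from PBS in the same direction in 64.0% of the pairs of ZNF genes and in 61.2% of the pairs of other genes, so that the shares were close. For hypo-Migs against normo-Migs, a comparison without PBS, it was 0.035 over the ZNF genes.

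**Figure D4:**
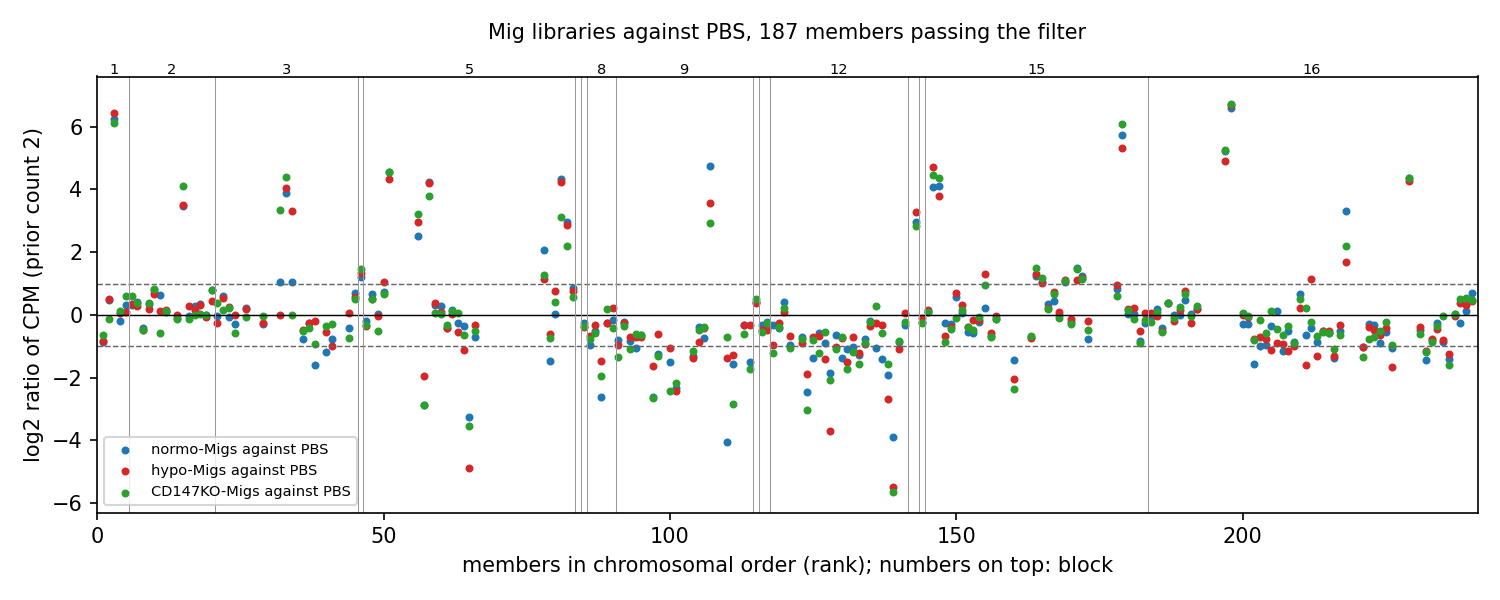
Log2 ratio of each Mig library to PBS (vertical axis, 1 point per library in its colour) for the 187 ZNF genes passing, in order along the chromosome (horizontal axis); dashed lines mark 2-fold and grey lines separate blocks. Points of blocks 9 and 12 lie mostly below 0, with medians of -1.03 and -0.91, while the 13 genes at 0 reads in PBS stand high, in 7 blocks.

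Among the Mig libraries, differences were few. Relative to normo-Migs, hypo-Migs had 8 of the 187 genes at least 2-fold higher and 7 lower, against 5.19% and 4.15% of all genes. Relative to CD147KO-Migs, it had 8 higher and 6 lower, against 4.78% and 4.34%. For normo-Migs relative to CD147KO-Migs, 7 were higher and 3 lower, against 4.73% and 4.96%. In percent, these were 4.28 and 3.74, 4.28 and 3.21, and 3.74 and 1.6 of the 187 genes, below the background at this filter. Medians were 0.03, 0.03 and 0.02. Genes with few reads made up most of these counts, and the order changed with depth. With a mean of at least 50 reads over the 4 libraries, hypo-Migs had 4 of 149 ZNF genes higher and 2 lower than normo-Migs (2.68% and 1.34%), against 0.39% and 0.257% of all genes. Against CD147KO-Migs, 1 was higher and 1 lower with hypo-Migs (0.671% each, against 0.316% and 0.228%), and 2 were higher and 0 lower with normo-Migs (1.34%, against 0.272% and 0.419%). In the range of 50 to 200 reads over the 4 libraries, the ZNF genes 2-fold apart in either direction were 6 of 73 between hypo-Migs and normo-Migs (8.22%, against 3.11% of all genes), 2 in the pair of hypo-Migs and CD147KO-Migs (2.74%, against 2.5%) and 2 in the last pair (2.74%, against 3.04%). Some genes enter that range through their reads in PBS, such as ZNF229. With the mean taken over the 3 Mig libraries, a choice made after seeing the data, 4 of 70 were apart between hypo-Migs and normo-Migs (5.71%, against 2.2%), 1 in the second pair (1.43%, against 1.92%) and 1 in the last (1.43%, against 2.99%). These counts are of 6 genes or fewer.

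ZNF573, at the end of block 9, had 114, 39, 105 and 34 reads, so that PBS and hypo-Migs lay together above normo-Migs and CD147KO-Migs. Its log2 ratio was 1.15 (95% counting interval 0.65 to 1.76) for hypo-Migs against normo-Migs and 1.38 (0.86 to 2.03) against CD147KO-Migs. ZNF112 had 148, 54, 138 and 100 reads and a log2 ratio of 1.09 (0.65 to 1.60) for hypo-Migs against normo-Migs, with CD147KO-Migs in between. ZNF836 had 35, 41, 105 and 71 reads and a log2 ratio of 1.09 (0.59 to 1.68) in the same pair. In this gene PBS and normo-Migs were the 2 lowest libraries. ZNF548 was the reverse, with 202, 219, 126 and 150 reads and a log2 ratio of -1.02 (-1.36 to -0.71). ZNF699 had 47, 73, 60 and 31 reads, a log2 ratio of 1.22 (0.65 to 1.93) for normo-Migs against CD147KO-Migs. Each of these is a difference between 2 libraries.

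The corepressors that KRAB zinc finger proteins work with were compared in the same way. In a list of 27 such genes, all passed, and their summed level was 3950 CPM in PBS and 3870, 3810 and 3800 CPM with Migs. TRIM28 was the most abundant, with 19962, 18408, 19153 and 17265 reads, and SETDB1 had 1597, 1525, 1907 and 1515. The 2-fold limit was passed by 1 of the 27 genes in each pair with PBS and by 0 in the pairs of Mig libraries, and no gene was 2-fold lower with Migs. Among all genes, 18.1%, 18.9% and 18.3% were 2-fold higher and 12.0%, 11.6% and 12.0% lower in the pairs with PBS. With a mean of at least 50 reads, which every listed gene had, the shares were 13.6%, 14.1% and 14.0% higher. Those lower were then 6.71%, 6.49% and 6.56%. The list was below both backgrounds, but it was not matched for level beyond that limit. The listed gene past the limit was DNMT3B, a DNA methyltransferase that sets new methylation marks, with 198 reads in PBS and 1634, 1917 and 1633 with the Migs. Its log2 ratio to PBS was 3.05 (2.85 to 3.28), 3.05 (2.85 to 3.28) and 3.01 (2.81 to 3.24). DNMT3A, its relative, had a log2 ratio to PBS of 0.70, 0.60 and 0.78. DNMT1, the maintenance methyltransferase, had 0.37, 0.29 and 0.30, whereas UHRF1, which guides it to newly copied DNA, had -0.44, -0.47 and -0.48. The lowest ratios in the list were those of FAM208A, a subunit of the HUSH silencing complex, at -0.68, -0.70 and -0.84. All of these except DNMT3B were less than 2-fold from PBS.

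Promoters were compared over the 250 bases before the RefSeq start, found for 209 of the 240 genes. In 173 of these the RefSeq start lay within 500 bases of the start in the data, and in some others, such as ZNF420, it was far from it. The median number of CG pairs was 16 in these genes, 19 in ZNF genes of other chromosomes, 17 in the rest of chromosome 19 and 18 over 14903 protein-coding genes. In 12 genes with 0 reads in PBS and at least 10 in each Mig library, the median was 13.5 CG pairs, with values between 4 and 27. It was 14.5 in 16 genes at least 2-fold above every Mig library in PBS and 15.5 in 20 genes without reads. The 129 other genes passing had a median of 17, 23 genes with some reads but under the filter had 10, and 9 genes at least 2-fold lower in PBS but outside the first class had 17. The ratio of observed to expected CG pairs was at least 0.6 in 41.7% of the first class, in 81.2% of the second, in 60.0% of the third and in 76.7% of the fourth. It was at least 0.6 in 47.8% of the genes under the filter and in 66.7% of the 9 genes lower in PBS. With the 173 genes alone, a choice made after seeing the data, the median was 13 CG pairs in 9 genes of the first class, 15 in 13 of the second, 14 in 17 of the third and 16 in 109 of the fourth, and the ratio was at least 0.6 in 33.3%, 92.3%, 58.8% and 74.3%. The classes overlapped widely, as the plot of CG pairs shows, and no test was made.

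**Figure D5:**
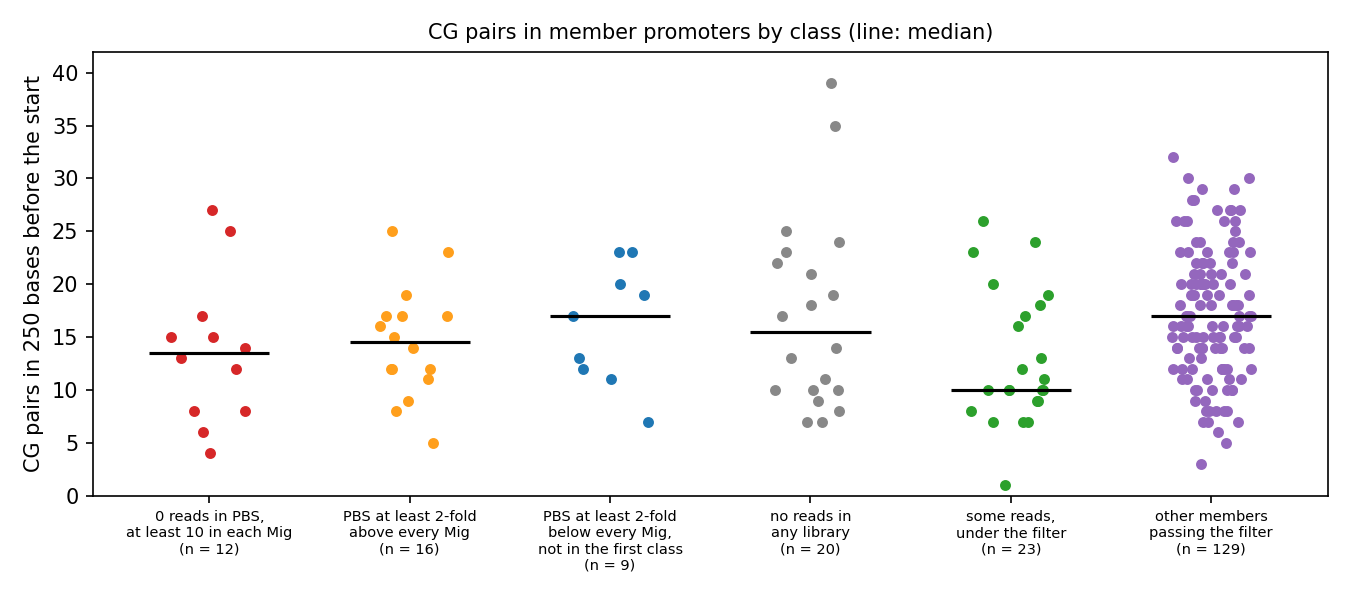
Number of CG pairs in the 250 bases before the start (vertical axis) for 209 ZNF genes (points) by class (horizontal axis, with n); horizontal lines are medians. The class with 0 reads in PBS and at least 10 in each Mig library has a median of 13.5 and the other genes passing the filter 17, and the ranges overlap.

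Letters of known promoter motifs were also searched on both strands of these windows. CCGGAAG, a core bound by ETS factors, was present in 30.1% of the ZNF genes of chromosome 19, in 29.2% of ZNF genes elsewhere and in 12.0% of all protein-coding genes. The CCAAT box (CCAAT) was present in 51.2%, 41.7% and 34.6%, and the GC box (GGGCGG) in 67.5%, 59.9% and 57.2%. TATAAA was present in 2.39%, 4.69% and 9.1%. Longer cores of NRF1, ZNF143 and Kaiso were found in at most 3.12% of any of these sets. ETS and CCAAT letters were thus more frequent, and TATA letters less frequent, in the ZNF genes than over all genes. Among the 16 genes at least 2-fold higher in PBS, 37.5% held the ETS core, 31.2% the CCAAT box and 18.8% TATAAA, the last being the 3 genes ZNF229, ZNF429 and ZNF776. In the class with 0 reads in PBS, 3, 6 and 0 of 12 genes held these letters, and of the 20 genes without reads 5, 12 and 0 did. In the other genes passing the shares were 28.7%, 51.2% and 1.55%. The RefSeq start of ZNF429 lay 8920 bases from its start in the data. Within the limit of 500 bases, TATAAA was held by 2 of 13 genes at least 2-fold higher in PBS and by 2 of 109 other genes passing. A match is a description of letters and not of a bound site.

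Several of the 240 genes share exonic bases with other genes, for which reads may have been split or left uncounted. A share above 50% was found in ZNF625 (83.3%), ZNF709 (79.2%), ZNF320 (78.5%), ZNF564 (69.9%), ZNF490 (61.3%), ZNF20 (58.8%), ZNF446 (58.5%) and ZNF468 (53.3%), besides ZNF177. Of the 13 genes with 0 reads in PBS and at least 10 in each Mig library, none shared more than 10.3%. Recent duplicates such as ZNF587, ZNF814 and ZNF417 have near-identical stretches, and the division of their reads is uncertain.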

How the data were processed

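RNA was sequenced from MHCC-97H cells, with 1 library for each of 4 conditions. According to the methods, mRNA was selected on poly-T beads, while a SMARTer mRNA kit is given in the labels. Per the labels, fastp, HISAT2 2.0.5 against hg38, and featureCounts 1.5.0-p3 were used, and CASAVA 1.8 is also listed. The handling of strands and of reads with several matches is not given in the sources used here. The authors deposited raw counts per gene and FPKM, which they scaled by gene length and library size. Coordinates are GRCh38, identical to GENCODE release 29 for the 240 genes.

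A gene was kept when 1 or more libraries held 10 of its reads. Libraries were scaled by TMM in edgeR 4.0.16 (R 4.3.3), with factors of 1.02, 0.986, 0.996 and 0.999. Log2 ratios used edgeR's formula with a prior count of 2, and exact 95% counting intervals came from the conditional binomial distribution (scipy 1.17.1). The study's criteria combine an adjusted p from DESeq2 with an absolute log2 ratio of 1. Without replicates only the fold was kept, and no p-value is given. The code was checked on simulated counts with counting error only, so that check does not cover variation between cultures or libraries. All 6 pairs of libraries were compared.

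The genes, lists and classes were chosen with earlier results of these data known. Genes named by rule were the 8 lowest and 8 highest in PBS by the smallest of 3 log2 ratios, up to 3 per direction for each pair of Mig libraries (at least 50 reads), the 8 most abundant, the ends of the longest run, and the listed corepressors and markers. Alternatives concerned scaling (DESeq2 1.42.0 size factors, upper quartile, no TMM), prior count, read filter, fold, the FPKM table, block gaps, and, added after seeing the data, a trend with GC content and length. Promoters were matched by symbol to RefSeq. Proteins were not analysed here.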

Additional observations from a re-analysis of the deposited data

How the results depend on the processing

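No paired analysis was possible because each condition had 1 library, and leaving out a replicate was not possible either. Of 432 values of the 54 named log2 ratios under other settings, 0 changed sign and 99 left their counting interval. The genes were named for large ratios, so the unchanged signs follow from that choice and do not show stability. Counts of genes at least 2-fold apart stayed within 1.5 times under every scaling and prior count, with the added demand on the interval, and with the GC and length trend removed. Below, counts are given as higher and lower for normo-Migs, hypo-Migs and CD147KO-Migs against PBS, then for hypo-Migs against normo-Migs, hypo-Migs against CD147KO-Migs and normo-Migs against CD147KO-Migs. With a mean of at least 50 reads they were 11 and 21, 13 and 14, 11 and 16, then 4 and 2, 1 and 1, and 2 and 0, and PBS was 2-fold below every Mig library in 11 genes and above in 9. With 1 read as the filter they were 38 and 36, 34 and 32, 35 and 30, then 12 and 15, 11 and 13, and 15 and 10, and the median for hypo-Migs against PBS was -0.08 against -0.24. With a 4-fold limit the counts were 18 and 8, 17 and 6, 18 and 10, then 2 and 0, 1 and 1, and 0 and 2. On log2(FPKM + 0.1) they were 18 and 26, 18 and 20, 16 and 26, then 0 and 0, 2 and 1, and 2 and 2. On log2(FPKM + 1) they were 1 and 1 for each Mig library against PBS and 0 in the other pairs. For the pairs of Mig libraries with 1 read as the filter or a 4-fold limit, no share over all genes is given. None is given on FPKM in any pair either, so these counts have no background to be read against. The larger number of genes lower with Migs therefore depended on the read filter and on the limit, since more genes were higher in all 3 pairs with PBS with 1 read as the filter and with 4-fold. A pseudocount near or above the level of most of these genes compresses their ratios. Gaps of 500000 and 2000000 bases gave 20 and 10 blocks. The ratio of PBS to the mean of the Mig libraries was 1.15 for summed CPM without TMM and 1.3 for the median FPKM, against 1.12. Depth limited genes with few reads, where a few reads make a 2-fold difference.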

Other observations

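Among 24 other zinc finger genes of chromosome 19, with symbols such as ZFP, ZSCAN or ZBTB, 16 passed the filter. ZSCAN18 had 0 reads in PBS and 33, 44 and 54 with normo-Migs, hypo-Migs and CD147KO-Migs. ZNF780B had 544 reads in PBS and 193, 225 and 178 with the Migs, and it was the only one of the 16 at least 2-fold higher in PBS than in every Mig library. ZBTB45, at the end of the long arm, had 450, 1032, 1040 and 955 reads, and ZSCAN5A had 184, 353, 407 and 373. ZFP14, next to ZFP82 within block 9, had 182, 95, 124 and 86 reads, and ZFP82 had 101, 65, 67 and 69. In the same block ZNF585A had 135, 66, 122 and 59 reads, ZFP30 had 309, 287, 310 and 255, and ZNF585B had 93, 111, 185 and 145 and was lowest in PBS. PEG3, ZIM2 and ZIM3, which are neighbours in the imprinted region of the long arm, had no reads in any library.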
